A study of Mus musculus with 16 samples.

Results

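The Sox2 summits private to Oct4defSox2-SK cells at day 5 are places where a Sox2 ChIP-seq library had a peak summit that no other Sox2 or Oct4-antibody library of the series had within 100 bp. They were selected on the measured summit positions of 12 lists, namely the 6 Sox2 lists and the 6 lists made with an Oct4 antibody. Of the 21551 Sox2 summits of this library on chromosomes 1 to 19, X and Y, 14600 (67.7%, 95% Wilson interval 67.1 to 68.4) met that rule, and the other 6951 are called shared. The whole series held 227116 summits in 13 ChIP lists.

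Embryonic mouse fibroblasts carrying an Oct4-promoter GFP reporter (OG2 MEFs) received Sox2, Klf4 (together SK) and 1 POU factor by retrovirus and were moved into the chemically defined iCD1 medium at day 0. In the library described here that factor was Oct4defSox2, an Oct4 changed at 2 residues of its Sox2 interface to hinder pairing with Sox2 on the canonical SoxOct element (other arrangements of the half-sites were not its target), and cells were taken at day 5. The other Sox2 libraries came from Oct4-SK and Oct6-SK cells at days 1 and 5 and from Oct4defSox2-SK cells at day 1. The Oct4-antibody libraries came from Oct4-SK cells (days 1, 5 and 7), Oct4defSox2-SK cells (days 1 and 5) and Oct4 S151M-SK cells (day 1). One further library, which the rule left out, was made with an Oct6 antibody from Oct6 M151S-SK cells, in which an Oct6 with 1 changed residue was the POU factor. Its title gives day 1 and another label day 2, and it is called day 1 here. Sox2 and Klf4 were supplied by retrovirus in every group, and no sorting of the cultures before crosslinking is described. Each group had 1 library, so intervals cover counting error among sites only, and a difference is called past counting error where its 95% Newcombe interval leaves out 0. It compares sites or libraries, not conditions.

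Sox2 binds DNA through an HMG box, a domain that sits in the minor groove and bends the helix, and it recognises short elements of the CATTGTT type. On many enhancers of pluripotent cells it binds beside Oct4 on a composite SoxOct element, the arrangement that Oct4defSox2 was built to disturb. AP-1 dimers of Fos and Jun proteins, which bind TGACTCA or TGAGTCA, occupy many enhancers of fibroblasts.

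The following mouse sequences (GRCm38, the build called mm10, plus strand) show what the private sites look like. The first pair are among the highest-scoring private sites with a Sox match and lie far from any summit of the 11 other lists. Capitals mark matches to CCATTGT or CCTTTGT on either strand.
Intergenic site, nearest coding start Cxcr4, chr1:128785589-128785789: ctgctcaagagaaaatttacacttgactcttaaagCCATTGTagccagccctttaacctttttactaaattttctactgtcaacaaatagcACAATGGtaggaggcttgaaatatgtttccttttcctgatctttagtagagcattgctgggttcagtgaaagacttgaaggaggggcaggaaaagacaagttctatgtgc
Intergenic site, nearest coding start Smim15, chr13:107923959-107924079: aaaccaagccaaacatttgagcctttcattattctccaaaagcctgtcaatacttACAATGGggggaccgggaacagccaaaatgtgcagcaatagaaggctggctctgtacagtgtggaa

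The next 3 hold a Sox match and an AP-1 match and were picked, after their values were seen, as strong sites over 1 kb from any other list whose matches fell near the summit. Capitals mark both kinds of match.
Intron of Ubox5, chr2:130595414-130595534: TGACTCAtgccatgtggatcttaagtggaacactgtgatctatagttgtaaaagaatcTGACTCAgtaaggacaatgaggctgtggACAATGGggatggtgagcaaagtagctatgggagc
Intron of Tln2, chr9:67263854-67263974: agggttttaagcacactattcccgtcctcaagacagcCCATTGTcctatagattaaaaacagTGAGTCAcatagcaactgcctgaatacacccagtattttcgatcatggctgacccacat
Intron of Arhgef3, chr14:27131637-27131757: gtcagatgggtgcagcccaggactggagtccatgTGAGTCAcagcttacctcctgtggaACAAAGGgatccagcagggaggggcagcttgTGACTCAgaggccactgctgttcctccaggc

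The following pair lie beside start sites of coding genes and are shown because a GGGCGGGGC word, an element of KLF and SP factors, stands near the Sox match. Capitals mark Sox and KLF matches.
Upstream of Llgl1, chr11:60698910-60699030: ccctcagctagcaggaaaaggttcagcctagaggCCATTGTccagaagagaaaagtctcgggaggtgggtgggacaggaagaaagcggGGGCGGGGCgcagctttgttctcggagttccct
Upstream of Crip2, chr12:113140103-113140223: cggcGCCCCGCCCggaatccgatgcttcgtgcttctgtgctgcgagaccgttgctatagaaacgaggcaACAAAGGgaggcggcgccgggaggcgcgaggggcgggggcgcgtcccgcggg

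The last one is the highest-scoring private site with no match to any of the 18 motifs searched, although it holds cattgtc, one of the 7-letter words in excess at private sites.
Intergenic site, nearest coding start Ahr, chr12:35292178-35292298: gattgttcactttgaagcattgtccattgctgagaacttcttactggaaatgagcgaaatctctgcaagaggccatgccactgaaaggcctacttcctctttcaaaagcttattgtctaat

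The private sites were the weaker summits of the list. The summit score is the −log10 of the peak caller's p-value at that base, so it grows with enrichment and with read depth and is comparable only within a library. Private sites had a median score of 7.24, with quartiles of 5.34 and 10.1 and a range of 4.06 to 62.0. Shared sites had a median of 14.0, quartiles of 9.27 and 23.8 and a highest score of 281. A score of 10 or more was reached by 30.9% of private and 73.4% of shared sites. Low scores were tied, and the private sites took only 425 distinct values, with 1685 of them at the median. The scores come from the library that chose the sites and are given as a description.

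Most private sites were well separated from every other list. The nearest summit of the 11 other lists lay over 1 kb away for 11285 of the 14600 (77.3%) and over 10 kb away for 4498 (30.8%). A further 1749 (11.98%) lay at 251 to 1000 bp and 1566 (10.7%) at 101 to 250 bp. The edge of the rule fell within a continuous range, with 237 shared summits at 91 to 100 bp (median score 10.1) and 225 private ones at 101 to 110 bp (median score 11.6). Nearly all peaks were simple, since only 469 private summits (3.21%) lay in a peak with more than 1 summit, and 196 (1.34%) had a shared summit in the same peak.

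**Figure D1:**
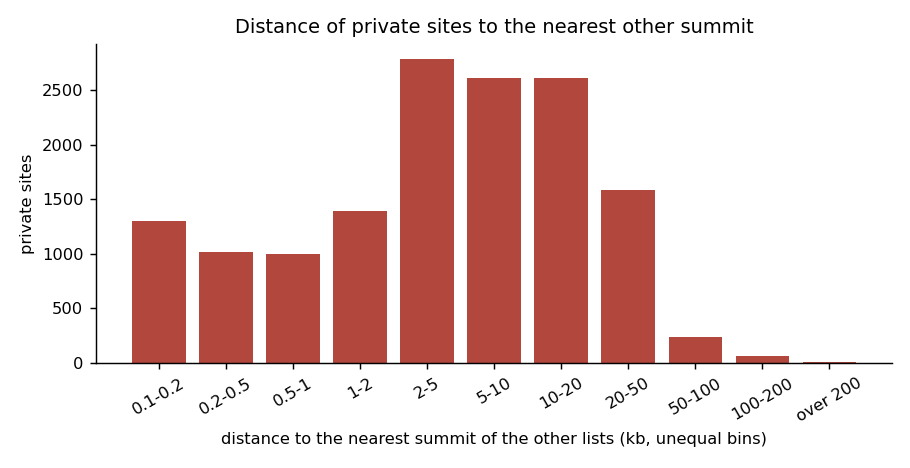
Number of private sites (bars) by distance to the nearest summit of the 11 other Sox2 and Oct4-antibody lists, in kb on unequal bins. The 3 bins from 2 to 20 kb hold 2784, 2613 and 2610 sites, while 1297 sites lie within 200 bp of another list's summit.

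Of the whole list, 4049 summits (18.8%) had a summit of Oct4defSox2 day 1, the second longest list at 31070, within 100 bp. Sox2 in Oct4-SK day 5, a list of 5832 before other contigs were left out, followed with 2228 (10.3%), then Sox2 in Oct4-SK day 1 with 1936 (8.98%), Oct4 S151M, the longest list at 101170 summits, with 1898 (8.81%) and Sox2 in Oct4defSox2-SK day 1 with 1895 (8.79%). Oct4defSox2 at day 5, a list of only 1038 summits, met 75 (0.348%). Just outside the rule, 804 private sites lay within 250 bp of an Oct4defSox2 day 1 summit, 539 of an Oct4 S151M summit, 250 and 196 of a Sox2 summit of Oct4-SK day 5 and day 1, and 191 of a Sox2 summit from the same cocktail at day 1.

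This Sox2 list was the longest of the 6, and its private share was the highest, although length and share did not have the same order in the other lists. The others were 57.9% of 15219 in Oct4-SK day 1, 40.7% of 5793 in Oct4-SK day 5, 29.4% of 5793 in Oct4defSox2-SK day 1, 38.7% of 3242 in Oct6-SK day 1 and 22.4% of 2669 in Oct6-SK day 5. When the 2669 strongest summits of each Sox2 list were taken, 646 (24.2%, 22.6 to 25.9) of this list were private, within the range of the other 5 lists, which ran from 17.7% in Oct4-SK day 1 to 39.6% in Oct6-SK day 1. The cutoff this set on the score was 20.3 here and between 4.06 and 11.6 in the others.

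**Figure D2:**
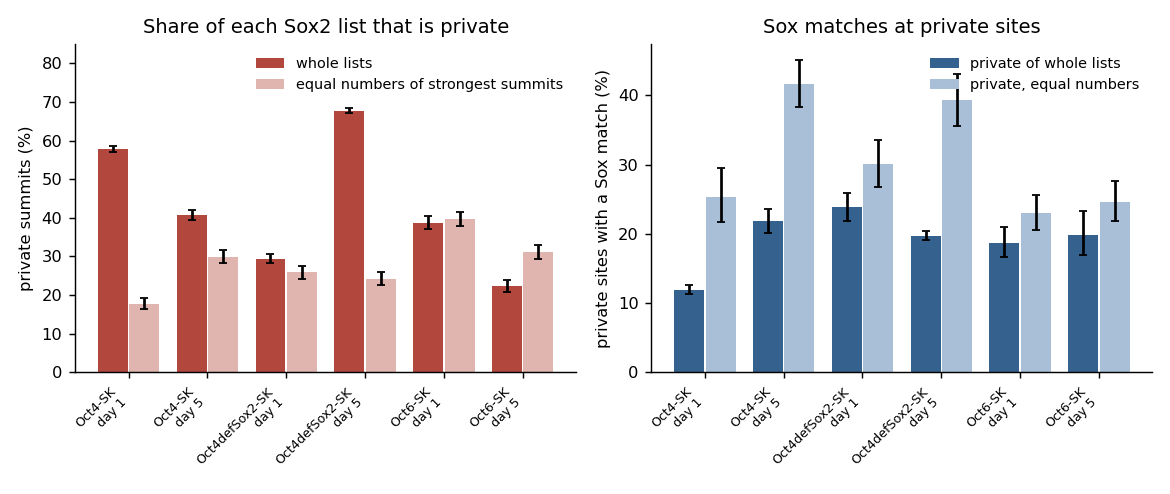
Left, percent of each Sox2 list that was private; right, percent of those private sites with a Sox match, for whole lists and for the 2669 strongest summits of each (bars, 95% Wilson intervals). Oct4defSox2-SK day 5 has the highest private share of the whole lists (67.7%) but not of the equal ones (24.2%), and its Sox share goes from 19.7% to 39.3%.

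The single Sox element set the private sites apart from the DNA around them. A Sox match (CCATTGT or CCTTTGT, both strands, within 100 bp of the summit) was found at 2876 of the 14600 private sites (19.7%, 19.1 to 20.4). In windows of the same length 2 kb to each side, 7.32% held one. The shared sites had 35.0%, so the private share was 15.3 points lower (interval 14.0 to 16.6), past counting error. Within 10 bins of score rank the difference was -8.65 points, and with the 6 Sox2 lists limited to their 2669 highest scores it was -2.45 points (-6.73 to 1.92) and no longer passed. More than 1 match was rare, with 279 private sites (1.91%) holding 2 or more against 5.48% of shared sites. Both words contributed, since CCATTGT was at 8.58% of private sites and 3.08% of the flanking windows and CCTTTGT at 11.9% and 4.38%. A following C gave the greatest excess, with CCATTGTC 3.68 times and CCTTTGTC 3.23 times as common as in the flanks.

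The matches clustered at the summit. Across the 3168 Sox matches of private sites the median distance to the summit was 41 bp, and 31.2% lay within 25 bp. At shared sites the median was 36 bp and 36.9% lay within 25 bp. Beyond about 200 bp the private and shared profiles ran together near 1% of sites per 25-bp bin.

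**Figure D3:**
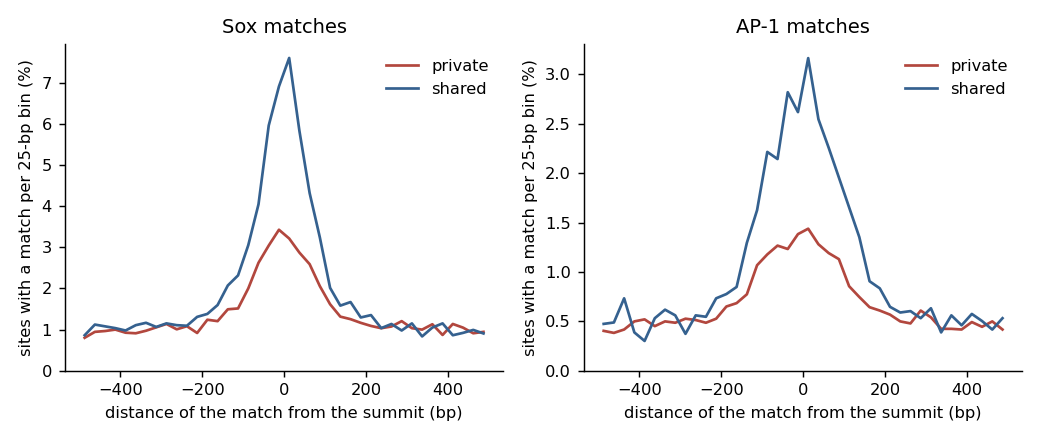
Percent of private and shared sites with a Sox match (left) or an AP-1 match (right) in each 25-bp bin, against the distance of the match from the summit in bp. Both lines peak at the summit, with the private peak lower for both motifs.

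The words that stood out without a chosen motif were the same elements. Of 6989 words of 7 letters present in at least 100 flanking windows, those without a CpG that were most in excess at private sites were CCATTGT (2.78 times the flanks), CCTTTGT (2.72 times), CTATTGT (2.71 times) and TGAGTCA (2.64 times). CTATTGT, a Sox-type word outside the pattern searched, was at 822 private sites (5.63%) and at 12.5% of shared ones. Words with a CpG went higher, led by CCGCCGC at 5.19 times. These ratios are a description of words found in the same data.

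AP-1 matches followed the Sox matches at about the same excess. They were present at 9.41% of private sites (1374 sites), 3.57% of the flanking windows and 17.9% of shared sites, a private share 8.46 points lower than the shared one (7.45 to 9.49). With all Sox2 lists limited to their 2669 highest scores it was -1.81 points (-5.03 to 1.70) and no longer passed counting error. A Sox or an AP-1 match was found at 26.9% of private and 47.2% of shared sites, and both together at 327 private sites (2.24%) and 5.71% of shared ones. TEAD elements (GGAATGC or GGAATGT), bound by the DNA-binding partners of Yap and Taz, were at 7.49% of private sites, 4.79% of flanks and 9.28% of shared sites, 1.79 points lower in private (0.994 to 2.60). With only scores of 10 or more in all lists that difference was 0.49 points the other way (-0.708 to 1.66). Leaving out the sites within 1 kb of a start site, it was 1.49 points (0.642 to 2.36).

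KLF elements were in excess at private and shared sites alike. They were at 4.23% of private sites, 1.16% of the flanks and 3.97% of shared sites, a difference of 0.26 points (-0.323 to 0.806) that did not pass counting error. With only scores of 10 or more it was 1.62 points (0.772 to 2.45), higher in private past counting error. It turned to -1.44 points (-2.19 to -0.693) within bins of equal GC content and was 0.60 points lower in private (0.0910 to 1.14) away from start sites, both past counting error the other way.

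The POU elements were scarce. SoxOct, the composite element of Oct4 and Sox2, was at 0.473% of private sites (69 sites), below the 0.575% of the flanks and the 1.67% of shared sites. MORE, the palindromic element of POU homodimers, was at 0.377% (55 sites) against 0.654% in the flanks and 1.22% of shared sites. The octamer ATGCAAAT was at 0.897% (131 sites) against 1.38% and 1.60%. All 3 were lower in private than in shared sites past counting error, by 1.20 points (0.894 to 1.54), 0.85 points (0.587 to 1.15) and 0.70 points (0.383 to 1.05). The rule removes sites with an Oct4-antibody summit, so a low share of POU elements is partly what it selects. With the Oct4 S151M list left out of the rule the differences were -1.08 points for SoxOct, -0.33 for MORE (-0.609 to -0.0934) and -0.55 for the octamer. With Sox2 lists of equal length MORE no longer passed counting error, at -0.54 points (-0.971 to 0.0942).

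The E-box CACCTG, an element bound by Snai and Zeb repressors of mesenchymal cells, ran the other way. It was at 11.0% of private sites and 12.9% of the flanks but only 5.87% of shared sites, 5.12 points higher in private (4.36 to 5.86). Among summits with scores of 15 or more the difference was 0.63 points (-0.766 to 2.16) and did not pass counting error. The related word CTACCTG was at 2.00% of private sites, 2.72% of flanks and 0.575% of shared sites. The myogenic-type E-box CAGCTG was at 11.97% of private and 10.8% of shared sites, 1.13 points higher (0.212 to 2.01). NFY elements (CCAATCA or CCAATGG), which mark many promoters, were at 5.34% of private sites, 5.04% of the flanks and 3.70% of shared sites. That is 1.64 points higher in private than in shared sites (1.05 to 2.201). Over the panel of 18 motifs, 5 were higher and 9 lower at private than at shared sites, and 4 did not pass counting error. No motif of the panel was found at 5003 private sites (34.3%), against 24.8% of shared sites and 45.6% of the flanks.

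**Figure D4:**
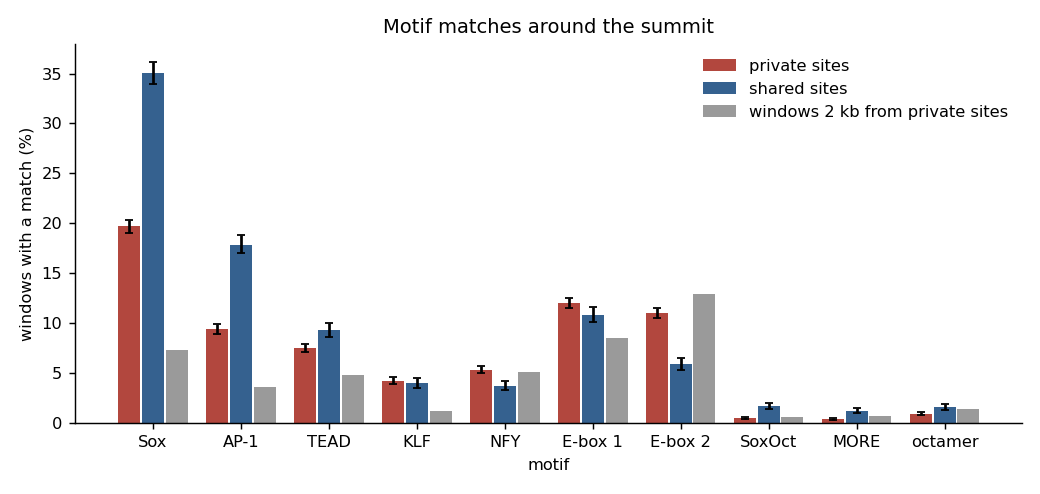
Percent of 201-bp windows with a match for private sites, shared sites (95% Wilson intervals) and windows 2 kb to each side of private sites. E-box 1 is CAGCTG and E-box 2 is CACCTG. Sox and AP-1 are lower at private than shared sites but above the flanks, while E-box 2 is lowest at shared sites.

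Within the private sites the motif content followed the score. In 5 equal groups from the lowest to the highest score (2920 sites each), the Sox share went through 12.4%, 14.0%, 17.4%, 22.2% and 32.5%, and the AP-1 share through 5.79%, 6.82%, 8.77%, 10.8% and 14.9%. CAGCTG went from 10.1% to 16.0%. CACCTG went the other way, from 13.3% to 7.36%, as did the share of summits inside a repeat masked in the reference, from 22.1% to 11.3%. SoxOct stayed below 1% in all 5 groups and was at 0.24% in the highest.

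**Figure D5:**
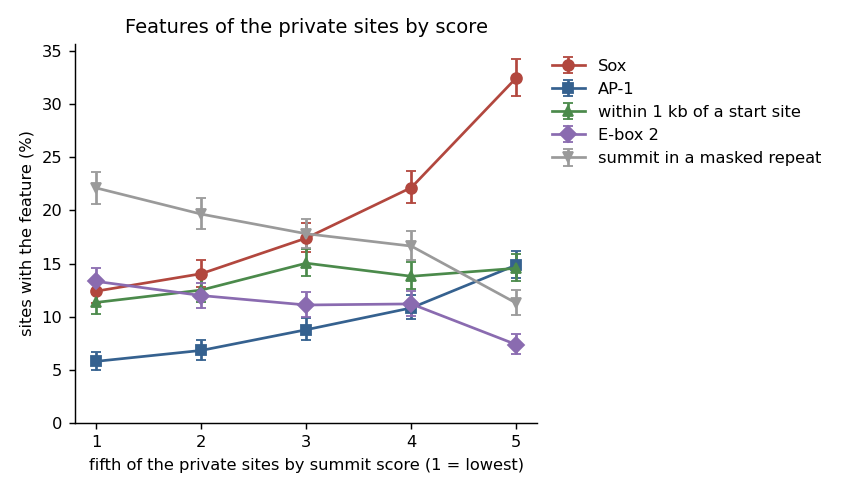
Percent of private sites with a feature in 5 equal groups by summit score (2920 sites per group, 95% Wilson intervals). The Sox and AP-1 lines climb to 32.5% and 14.9%, while masked repeats and the E-box CACCTG (E-box 2) decline to 11.3% and 7.36%.

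The Sox shares of private and shared sites lay closer together among strong summits than among weak ones. At scores from 15 to 20 the Sox share was 34.0% of 786 private and 35.7% of 970 shared sites, a difference of -1.70 points (-6.15 to 2.79). At scores from 20 to 30 it was 39.6% of 487 and 39.1% of 1130, a difference of 0.52 points (-4.61 to 5.74), and at 30 or more 43.7% of 135 and 44.4% of 1177. Below a score of 10 the private share was 15.5% and the shared one 27.5%, 12.1 points apart (9.97 to 14.3), and from 10 to 15 it was 25.7% and 33.8%, 8.07 points apart (5.42 to 10.7). Scores of 15 or more as 1 group gave 36.9% of 1408 private sites and 40.0% of 3277 shared ones, 3.11 points lower (0.0676 to 6.12). AP-1 in that group was at 15.4% of private and 19.4% of shared sites, 4.00 points lower (1.62 to 6.26). By bin, the AP-1 difference passed counting error at scores from 15 to 20, at -5.88 points (-9.396 to -2.299), and did not at 20 to 30 (-3.07 points, -6.98 to 1.14) or at 30 or more (-3.20 points, -8.71 to 4.07). The 894 strong private sites over 1 kb from the other lists had 38.4% with a Sox match and 14.2% with an AP-1 match.

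Sites just outside the sharing distance carried more Sox and AP-1 matches than isolated ones. The 3315 private sites with another list's summit at 101 to 1000 bp had a Sox match in 23.0% and an AP-1 match in 13.2%. The 11285 sites over 1 kb from any other list had 18.7% and 8.30%, still above the flanks. KLF matches were at 4.40% of the nearer and 4.17% of the farther sites, and the E-box CACCTG was at 9.47% and 11.4%. The median score was 8.62 in the nearer and 7.24 in the farther sites.

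The private sites of the other Sox2 lists gave a scale for these shares. Those of Oct6-SK day 1 and day 5 (1255 and 598 sites) had a Sox match in 18.7% and 19.9%, an AP-1 match in 8.92% and 5.52% and SoxOct in 1.67% and 1.17%, differences that were not computed. Those most alike in origin came from the same cocktail at day 1, and had a Sox match in 23.9% of 1704, an AP-1 match in 9.98% and SoxOct in 0.469%. The Oct4defSox2-SK day 5 sites were 4.19 points lower for Sox (2.12 to 6.36), while the differences for AP-1, -0.57 points (-2.15 to 0.854), and SoxOct, 0.0031 points (-0.462 to 0.266), did not pass counting error. Most alternatives kept the Sox call (10 of 12), with -6.92 points at a sharing distance of 1 kb and -14.2 with the looser match. There the AP-1 difference passed counting error too, at -2.57 points (-5.06 to -0.465) and -3.81 (-5.81 to -1.94). With Sox2 lists of equal length the sign changed, and the day 5 sites were higher by 9.22 points for Sox (4.11 to 14.3) and by 7.04 points for AP-1 (3.39 to 10.7). That setting kept 2669 of 21551 summits here and 2669 of 5793 at day 1. Within the private sites described here Sox and AP-1 shares rose with score, so unlike parts of the lists were compared. With only scores of 10 or more the day 5 sites were 4.10 points higher for AP-1 (1.31 to 6.45), and the Sox difference was 1.05 points (-2.82 to 4.68). A score of 10 need not mark the same strength in different libraries. KLF matches were at 0.822% of the day 1 sites, 3.404 points below day 5 (2.77 to 3.88), and the E-box CACCTG at 4.17%, 6.83 points below (5.66 to 7.82). The private sites of Oct4-SK day 5 were at 5.01% for KLF, a difference within counting error, and at 13.3% for CACCTG, 2.34 points above the sites described here (0.928 to 3.86). Those of Oct6-SK day 5 were at 3.68% and 9.70%.

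Private sites of Oct4-SK day 1, the next longest list, had a Sox match in 11.9% of 8813 and an AP-1 match in 6.21%. Against these the Oct4defSox2-SK day 5 sites were 7.78 points higher for Sox (6.84 to 8.71) and 3.20 points higher for AP-1 (2.51 to 3.89). Private sites of Oct4-SK day 5 had 21.8% of 2355 with a Sox match and 5.73% with AP-1. Against these, the Oct4defSox2-SK day 5 sites were 2.13 points lower for Sox (0.379 to 3.96) and 3.68 points higher for AP-1 (2.56 to 4.67). SoxOct was at 1.40% of the Oct4-SK day 5 private sites and 1.13% of those of Oct4-SK day 1, so the Oct4defSox2-SK sites were lower by 0.93 points (0.508 to 1.497) and 0.66 points (0.426 to 0.925). The size of both differences from Oct4-SK day 5 depended on the setting. That for Sox ran from -7.95 points with scores of 10 or more (-12.02 to -4.01) to 0.71 with the looser match and did not pass counting error under 6 of 12 alternatives. That for AP-1 passed under all 12, from 1.58 points with the stricter match to 8.51 with Sox2 lists of equal length. Equal length kept 2669 of 21551 summits here and 2669 of 5793 of Oct4-SK day 5, which are unlike parts of the lists. The paper lists Sox2 ChIP antibodies from different suppliers without saying which library used which. Depth, antibody and antibody yield of the libraries cannot be told apart from cocktail and day.

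Start sites held more of the private than of the shared summits. Within 1 kb of an annotated transcription start lay 1963 private sites (13.4%, 12.9 to 14.0) and 8.78% of the shared ones, 4.67 points higher in private (3.79 to 5.52). Averaged within 10 bins of equal GC content, the difference was 0.21 points (-0.791 to 1.21). Private windows had a median GC content of 45.8% against 42.3% in shared ones, and 7.76% of them held 10 or more CpG against 3.90%. The promoter share of Oct4-SK day 5 private sites was 12.4%, so that of the sites described here was 1.00 point higher (-0.493 to 2.39), within counting error. That difference changed with the processing, to -3.05 points (-6.29 to -0.203) with scores of 10 or more, -5.66 (-9.31 to -1.93) with Sox2 lists of equal length and 1.68 (0.453 to 2.91) within GC bins, each past counting error. The share was 5.16% of Oct4defSox2-SK day 1 private sites, and that of Oct4-SK day 1 private sites was 7.23%. The remaining private sites lay in exons (435, 2.98% of all 14600), in introns (6615, 45.3%) and between genes (5587, 38.3%). Masked repeats held 17.5% of private summits, 13.6% of shared summits and 28.0% of the flanking positions.

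Promoter sites differed in motif content from the other private sites. KLF elements were at 14.2% of the 1963 promoter sites and 2.68% of the other private sites, 11.5 points apart (9.98 to 13.1). ETS elements (CCGGAAG) were at 6.16% against 0.791%, and NFY elements at 10.1% against 4.60%, both higher past counting error. Promoter summits of other classes held them too, with KLF, ETS and NFY at 11.1%, 5.08% and 10.98% of the 610 shared ones and at 14.7%, 7.51% and 9.22% of the 293 private ones of Oct4-SK day 5. Sox matches were only slightly fewer, at 18.0% against 19.97%, 1.98 points lower (0.092 to 3.76), and AP-1 was at 6.06% against 9.93%. Leaving the promoters out did not close the gap to the shared sites, with Sox at 19.97% of private and 35.3% of shared distal sites, 15.3 points apart (13.9 to 16.7).

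The Oct6 M151S list was not used by the rule. Shared sites were nonetheless selected for a summit in another Sox2 or Oct4-antibody list and private ones for having none, so the overlap is given as a description that supports nothing. Oct6 M151S met 716 of the 21551 Sox2 summits within 100 bp (3.32%), of which 143 were private. That is 0.979% of private and 8.24% of shared sites, 7.26 points lower in private (6.62 to 7.95). With only scores of 10 or more in all lists, which left 192 Oct6 M151S summits, the difference was -0.56 points (-0.858 to -0.336). The private sites of Oct4-SK day 1 and day 5 met it in 1.24% and 1.06%, and those of Oct4defSox2-SK day 1 in 2.41%. The Oct6 M151S list went down to a score of 2.301, lower than the 4.00 of the other lists.

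The 10 highest-scoring private sites were spread over 8 chromosomes and mostly lay outside genes or in introns. The highest, at chr18:13134812-13134812 with a score of 62.0, lay between genes 3251 bp from the nearest transcript start and held 1 Sox match. Next came chr2:6261283-6261283 in an intron of A230108P19Rik and chr2:26654772-26654772 between genes, both with a score of 61.4 and 1 Sox match. They lay 103 and 110 bp from summits of Sox2 and Oct4defSox2 in the same cocktail at day 1, just past the sharing distance. The Ahr-side site printed above had a score of 59.0 and a Sox2 summit of Oct4-SK day 5 at 126 bp. The Cxcr4-side site printed above scored 55.4, held 2 Sox matches, and had no other list's summit within 33896 bp. It lay 193396 bp from the start of Cxcr4, the chemokine receptor for Cxcl12. The sites in Trub2 (score 52.5) and Prickle2 (50.7) each held 1 Sox match, at 22 and 3 bp from the summit, and had another summit at 134 and 144 bp. A site near Gdi2 (50.7) held an AP-1 match 80 bp from its summit, and those in Gm29328 (50.7) and on the Myh13 side of chromosome 11 (50.3) held neither element. Of the 10, 6 lay within 150 bp of another list's summit and 6 held a Sox match.

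Among private sites beside coding genes, the strongest lay 873 bp from a transcript start of Tnks1bp1, a tankyrase-binding protein, with a score of 45.9 and no motif of the panel. The second lay at chr1:190979262-190979262, 34 bp from the start of Vash2, a vasohibin that trims tyrosine from tubulin, in its untranslated region, with a score of 35.9 and an AP-1 match 24 bp from the summit. The site upstream of Llgl1, a gene of epithelial cell polarity, scored 35.0 and lay 753 bp from its start, with a Sox match 23 bp and a KLF match 32 bp from the summit and no other list's summit within 63222 bp. The site of Zfp143, a zinc-finger activator of promoters, scored 35.0 and lay 107 bp from a Sox2 summit of Oct4-SK day 5. The Crip2 site scored 34.2, lay 73 bp from the start and held 25 CpG in its 201 bp. The sixth, at Lzts2 with a score of 30.8, held a KLF match at 17 bp.

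The 5 strongest sites without any motif of the panel were the Ahr-side, Myh13-side and Tnks1bp1 sites, an intron site of Plekhh2 (47.2) and an intergenic site near Ccnq (42.6). The nearest other summits of the Plekhh2 and Ccnq sites were at 2230 and 5794 bp.

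The 3 printed sites with both Sox and AP-1 matches scored 42.1 in Ubox5, 32.9 in Tln2, the gene of the integrin linker talin 2, and 27.8 in Arhgef3. In Ubox5 and Arhgef3 the window held 2 AP-1 matches and 1 Sox match. Their nearest other summits lay 7366, 4990 and 37098 bp away.

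By annotated gene span with 10 kb to each side, long spans held the most private sites. Spans of this kind can run across other genes, whose sites are then counted too. Gm20388, an annotation of 4435 kb, held 41. The annotated span of Fgfr2, a receptor for fibroblast growth factors, held 29 over 2961 kb. Gm37240 held 16, Pard3, a cell polarity scaffold, 15, and Ctnna3, an alpha-catenin, 13 with 0 shared summits. Fhit, Shroom3 and Sox5 held 11 each, and 2010111I01Rik and Arhgef3 10 each. Per length the densest of these was Shroom3, an organiser of apical actin in epithelia, at 3.64 sites per 100 kb, followed by Arhgef3 at 3.24 and Pard3 at 2.64. Pard3 and Arhgef3 held 1 shared summit each, while Fgfr2 held 12 and Sox5, a Sox protein without a transactivation domain, 8.

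Of the 100-kb windows, 17132 held no private site, and how evenly the sites were spread was not tested. Of the windows with any, 6944 held 1, 2281 held 2, 642 held 3, 201 held 4 and 46 held 5. The highest count was 7, in 2 windows. One, chr5:142800001-142900000, covers parts of Tnrc18 and Fbxl18 and held 7 private and 2 shared summits. The other, chr19:29200001-29300000 over Jak2, a kinase of cytokine receptors, held 7 private and 0 shared. A further 20 windows held 6, the first of which in chromosome order was chr1:39900001-40000000 over Map4k4. Density per Mb ran from 4.68 on chromosome 14 to 6.83 on chromosome 11 among the autosomes and was 0.988 on X and 0 on Y. The shared summits were likewise sparse on X, at 0.649 per Mb against 2.38 to 3.47 on the autosomes.

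Private sites lay within 50 kb of the start of 10733 of the 21911 protein-coding genes (49.0%), with a median of 0 sites per gene. That is the background for the gene lists, which were not tested and which share some genes. Epithelial genes had one in 15 of 21 (71.4%), with 3 sites each at Cldn3 and Cldn7, both tight-junction claudins. The highest-scoring, 27.8, lay 42413 bp upstream of Dsp, the gene of desmoplakin. Cdh1, the E-cadherin gene, had 1 site with a score of 5.95. Fibroblast and mesenchymal genes had one in 12 of 20 (60.0%). Twist2, a mesenchymal repressor, and Vim, the gene of vimentin, had 3 each, and the highest score, 35.0, was in an intron of Tgfbr2, a TGF-beta receptor. AP-1 factor genes had one in 7 of 12 (58.3%), with 4 at Fosl2, the strongest of which (25.8) lay 7926 bp into the gene with a Sox match.

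The signalling lists were near or somewhat above the background. TGF-beta and BMP genes had a private site in 16 of 26 (61.5%), with 4 each at Acvr1, Smad7 and Id1 and 3 each at Bmpr2 and Tgfb3. These are 2 receptors, an inhibitory Smad, a target gene of BMP signalling and a ligand. The strongest site counted for Id1 (35.0) lay 49455 bp past its start, in an intron of Bcl2l1. Wnt genes had one in 13 of 25 (52.0%), with 3 each at the receptor gene Fzd7 and at Tcf7l2, a beta-catenin partner, and the highest score, 17.7, was 47613 bp upstream of Apc. Of the 14 Hippo pathway genes found in the annotation under the names searched, 10 had one (71.4%), with 4 at Amotl2, up to a score of 14.0, and 3 at Tead1. Klf genes had one in 10 of 17 (58.8%), with 6 at Klf6, up to a score of 23.9, and 4 at Klf13.

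Genes of pluripotent and neural identity were also counted. Naive pluripotency genes had a private site in 9 of 22 (40.9%), among them 1 site at Nanog with a score of 8.62. Neural progenitor genes had one in 11 of 22 (50.0%), the highest a score of 12.3 near Olig2. Sox genes had one in 11 of 20 (55.0%), the highest 32.7 upstream of Sox11. Of the 3 transduced factors, Sox2 and Klf4 had 0 private sites within 50 kb. Pou5f1, the Oct4 gene, had 5 private sites, and 2 of them lay in its exons. The stronger, at chr17:35510422-35510422 with a score of 35.4, lay 4404 bp past the start and held no motif of the panel. A shared summit near the gene reached a score of 281. Retroviral Oct4defSox2 shares these exons with the endogenous gene, so reads of the 2 copies cannot be told apart.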

How the data were processed

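The summit lists of 13 ChIP libraries were used. The authors aligned paired-end reads to mm10 with Bowtie2 2.2.5, removed duplicates with SAMtools and called peaks and summits per library with MACS2, and each summit carries a deposited score, −log10 of its MACS2 p-value, with no adjustment or scaling across libraries. The deposited peak tables and 3 input libraries were not used here. Read depth is not given in these lists.

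Sites and gene lists were chosen with earlier results of these data known. From the lists, each Sox2 summit was called private when no summit of the other lists lay within 100 bp. Motifs were searched as letter patterns on either strand up to 100 bp from the summit (SoxOct with up to 2 mismatches, MORE with up to 1, the other 16 motifs with 0), with windows 2 kb to each side as background. Sequence came from the RefSeq copy of GRCm38, where 0 summits lay past a chromosome end, and genes from GENCODE M21 basic. Repeats are the lower-case bases of that sequence. Shares have Wilson and differences Newcombe 95% intervals. For the whole class 92 differences were computed, besides those by score bin, by promoter and under the alternative settings. No p-value was computed, since each group had 1 library. The scripts (Python 3.11.15, numpy 2.4.6, pandas 2.3.3, matplotlib 3.10.9) were tested on simulated data.

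The sites named were the 10 with the highest score and the 5 highest with a Sox match and the 5 highest without motifs. The 6 highest within 1 kb of a transcript start of a coding gene were named too. So were the 10 genes with most sites, listed genes with 3 or more sites or the highest score, and the 3 fullest windows of 100 kb. Smim15, Ubox5, Tln2, Arhgef3 (as a site), Cdh1 and Nanog were added after their values were seen.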

Additional observations from a re-analysis of the deposited data

How the results depend on the processing

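Of 204 alternative values for 19 results, 168 were called the same. For differences this means that direction and side of the threshold were kept. For the counts of sites and of listed genes it means staying within a set ratio of the reported count. The class held 5882 sites where all lists were limited to scores of 10 or more and 646 where the 6 Sox2 lists had equal numbers of strongest summits. Over the other settings it held 11285 (sharing distance 1 kb, chosen after seeing the data) to 16380 (50 bp). Equal numbers keep a smaller part of a longer list, and scores are not on 1 scale across libraries. Between libraries, equal numbers, the score cutoff of 10 and bins of score rank thus do not match sites for strength. With equal numbers, the differences from shared sites were -2.45 points for Sox, -0.54 for MORE, -1.81 for AP-1 and 0.37 for TEAD, none past counting error with only 646 private sites. With scores of 10 or more they were 0.49 points for TEAD and 1.62 for KLF, the latter past counting error. The KLF difference was -0.0764 points with the stricter match, -0.51 with the looser one and -1.44 within GC bins. The Sox difference from Oct4-SK day 5 private sites was -0.99 points at 250 bp, -1.17 at 1 kb, -2.41 with equal numbers, -1.26 in windows of 50 bp, -1.71 within GC bins and 0.71 with the looser match, and it was larger at -7.95 with scores of 10 or more, -5.62 within bins of score rank and -4.86 at 50 bp. Differences from the Oct4defSox2-SK day 1 private sites were added after seeing the data. The Sox difference was 1.05 points with scores of 10 or more and 9.22 with equal numbers. The AP-1 difference was 4.10 and 7.04 points there, -2.57 at 1 kb, 0.0088 in windows of 50 bp and -3.81 with the looser match. The SoxOct difference stayed within counting error, at -0.20 points at 50 bp, -0.022 with 1 summit per peak, -0.014 without the Oct4 S151M list, -0.0087 in windows of 50 bp, -0.66 with the looser match and -0.38 within GC bins. The promoter difference from shared sites was 0.21 points within GC bins. That from Oct4-SK day 5 private sites was -3.05 points with scores of 10 or more, -5.66 with equal numbers, -0.79 with a distance of 5 kb and 1.68 within GC bins, all but the 5 kb value past counting error. Sites within 10 kb rather than 50 kb of a start were found for 53 rather than 112 of the 196 listed genes. The background of all protein-coding genes was 17.5% at 10 kb. Sox genes, at 10.0%, and AP-1 factor genes, at 16.7%, lay below it there but above the background at 50 kb. The transduced factors, at 33.3% for both distances, went the other way, and the remaining lists kept their side. The causes were not tested. The SoxOct, octamer and Oct6 M151S differences from shared sites, the Sox and AP-1 differences from Oct4-SK day 1 and the AP-1 difference from Oct4-SK day 5 kept their direction and passed under every alternative run, although their sizes moved, Oct6 M151S to -0.56 points with scores of 10 or more, SoxOct to -0.22 with the stricter and -4.64 with the looser match and the octamer to -5.67 with the looser one. MORE was at -0.058 and -4.70 points with the stricter and looser match. The octamer, searched with no mismatch, had no stricter match to try. Within bins of score rank the Sox difference from shared sites was -8.65 points. No paired analysis was possible because each group had 1 library. The intervals do not cover variation between cultures, and library depth limits which weak summits could be called in any list.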
